A study of Mus musculus with 10 samples.

Results

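Interferon-gamma induces 2 families of large immune GTPases in mouse cells, the immunity-related GTPases (IRG) and the guanylate-binding proteins (GBP). The part of these families examined here is 10 genes, Tgtp1, Tgtp2, Iigp1, Igtp, Irgm1 and Irgm2 of the IRG family and Gbp2, Gbp3, Gbp6 and Gbp7 of the GBP family. Other genes of the families were measured too and are given further below as a list. The genes were picked by their symbols from the 24016 transcripts of the deposited table, each symbol matched 1 row, and the choice was made on measured values, since it was known that RPKM was lower after VEGF gene transfer. The difference between the groups is therefore given for the 10 genes as a description, with no test.

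Male C57BL/6 mice, 8 to 12 weeks old, received an adenovirus of serotype 5 by tail vein, and the liver was taken 6 days later after perfusion. AdVEGF carried VEGF-A165 under the CMV promoter (n = 5), and AdCMV carried the promoter without a transgene (n = 5), so that both groups had received a viral vector and no mouse without vector was measured. The promoter is not restricted to a cell type, and the whole liver was used, so each value is a sum over hepatocytes, endothelial cells, Kupffer cells and lymphocytes. RNA was depleted of ribosomal RNA and sequenced, and expression is given as RPKM, the reads on a transcript divided by its length in kilobases and by the number of mapped tags of that mouse.

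IRG and GBP proteins are made in response to interferon-gamma, which signals through its receptor and the Jak1 and Jak2 kinases to transcription factors. The promoters of the induced genes often hold a GAS element, for interferon-gamma activated site, and the interferon response element ISRE, which is bound by IRF factors such as Irf1. The proteins assemble on membranes of vacuoles that hold bacteria or parasites, with effector IRG proteins such as Iigp1 and the Tgtp pair disrupting the vacuole and the Irgm group keeping effectors inactive on the membranes of the cell itself.

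RefSeq promoter windows of GRCm38.p6 were found for 8 of the 10 genes, all but Iigp1 and Gbp6. They are shown because the letters of the GAS element (TTCNNNGAA) and of the ISRE core (GAAANNGAAA) can be read in them directly for genes that answer to interferon-gamma. Both motifs were searched on both strands of the 250 bases before the start, and overlapping matches were allowed. The last 110 of these bases are printed, read toward the gene, with every GAS or ISRE core match in capitals.
Tgtp1, chr11:48992247-48992356, minus strand: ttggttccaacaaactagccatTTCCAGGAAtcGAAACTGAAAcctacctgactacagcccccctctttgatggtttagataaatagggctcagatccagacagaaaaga
Tgtp2, chr11:49064213-49064322, minus strand: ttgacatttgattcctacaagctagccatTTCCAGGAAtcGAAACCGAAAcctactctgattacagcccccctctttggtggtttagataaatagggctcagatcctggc
Igtp, chr11:58199446-58199555, plus strand: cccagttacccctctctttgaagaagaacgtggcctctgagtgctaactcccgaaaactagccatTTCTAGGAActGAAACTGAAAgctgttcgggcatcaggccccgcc
Irgm2, chr11:58214867-58214976, plus strand: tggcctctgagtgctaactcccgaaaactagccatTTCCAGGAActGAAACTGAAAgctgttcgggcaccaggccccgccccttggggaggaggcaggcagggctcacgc
Irgm1, chr11:48871421-48871530, minus strand: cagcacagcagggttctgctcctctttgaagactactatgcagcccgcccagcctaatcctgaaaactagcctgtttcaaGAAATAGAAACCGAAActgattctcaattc
Gbp2, chr3:142620553-142620662, plus strand: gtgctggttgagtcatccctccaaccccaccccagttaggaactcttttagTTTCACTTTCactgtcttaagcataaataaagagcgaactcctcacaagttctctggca
Gbp3, chr3:142559934-142560043, plus strand: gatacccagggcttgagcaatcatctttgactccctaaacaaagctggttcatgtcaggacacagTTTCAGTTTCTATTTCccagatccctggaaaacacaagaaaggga
Gbp7, chr3:142530226-142530335, plus strand: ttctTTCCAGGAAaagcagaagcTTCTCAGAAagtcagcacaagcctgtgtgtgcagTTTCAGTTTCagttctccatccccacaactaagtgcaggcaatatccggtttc

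All 8 genes had an ISRE core in the window, against 2.98% of the 32851 promoter entries of the table, and 5 of the 8 also had a GAS match, which 7.02% of all entries hold. For Gbp3, which has 2 entries, the match lay in the entry printed and the other entry held neither motif. In Tgtp1, Tgtp2, Igtp and Irgm2 the GAS match stood 2 bases before the ISRE core. This spacing was looked for after the windows had been read, and it was found in 5 entries of the whole table, those 4 genes and Gm12185, which is another gene of the IRG family. Gbp7 had 2 GAS matches farther from its ISRE core, and in the 3 GBP promoters the ISRE core lay on the opposite strand. A match of letters is a description of the window and does not show that a factor was bound.

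Between 5596560 and 13494000 mapped tags lay behind the libraries, and 3 reads on a transcript of 1 kb corresponded to 0.222 to 0.536 RPKM. The 10 genes together had between 26144 and 61204 reads in an AdCMV mouse and between 3899 and 7455 in an AdVEGF mouse, with no value of a gene under 59 reads. Major urinary protein (Mup) genes took up to 50.5% of the reads after AdCMV (36.6% ± 12.2, SD, n = 5) and up to 28.6% after AdVEGF (16.3% ± 7.92, SD, n = 5). Over the 13933 genes tested, the log2 fold change had a median of 0.38 with the deposited RPKM, and of -0.01 once libraries were scaled by median ratios.

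All 10 genes had lower RPKM in the AdVEGF than in the AdCMV livers. The 5 AdVEGF values lay below the 5 AdCMV values for each of them, as for 1.29% of all genes tested, and the log2 fold change was under -1 for 9 of the 10, as for 2.08% of all genes tested. Nothing is read from these shares, as the genes were chosen for this difference. The log2 fold changes, on the log2(RPKM + 0.1) scale, ran from -3.40 for Tgtp1 to -0.998 for Irgm2 with a median of -2.20, and the median was -2.60 after median-ratio scaling. In whole liver, fewer cells that express a gene and less RNA per cell cannot be told apart.

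**Figure D1:**
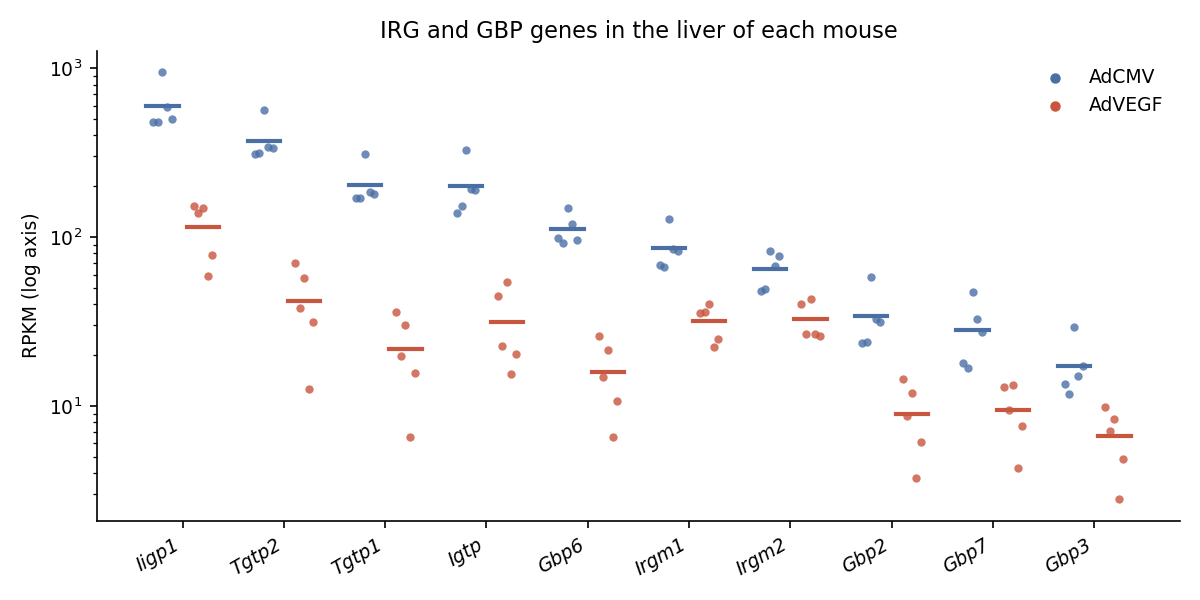
RPKM of the 10 GTPase genes in each of the 5 AdCMV and 5 AdVEGF mice, on a log axis. Points are mice and short lines are group means. Every AdVEGF point of a gene lies below every AdCMV point of that gene.

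Iigp1, also called Irga6, an effector IRG that loads early onto vacuoles, lies on chromosome 18. It had the highest level of the 10 genes, with 480, 478, 947, 590 and 503 RPKM in AdCMV mice 1 to 5 and 152, 138, 149, 58.6 and 78.0 RPKM in AdVEGF mice 1 to 5. The lowest AdCMV value was 3.15 times the highest AdVEGF value. Group means were 599 ± 199.8 (SD, n = 5) and 115 ± 43.6 RPKM (SD, n = 5), and the log2 difference was -2.43 (standard error 0.29).

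Tgtp1 and Tgtp2 encode the effector known as Irgb6. Tgtp1, at chr11:48798831-48805748 in the table (mm9, minus strand), had 171, 171, 311, 185 and 179 RPKM in the AdCMV mice and 36.0, 19.7, 30.2, 6.53 and 15.6 RPKM in the AdVEGF mice. Tgtp2 had 309, 314, 564, 341 and 336 RPKM, against 69.8, 38.0, 57.2, 12.5 and 31.3. These were the widest gaps of the 10 genes, with the lowest AdCMV value 4.73 times the highest AdVEGF value for Tgtp1 and 4.44 times for Tgtp2. The log2 fold changes were -3.40 (standard error 0.35) and -3.33 (standard error 0.36).

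The values of the pair cannot be taken as separate measurements. The row of Tgtp2 spans chr11:48798831-48805756, on top of the row of Tgtp1, with a length of 2812.5 bases, which is not a whole number. In GRCm38.p6 the promoters of the pair lie apart, as printed above. The longest open reading frames of the GENCODE M21 transcripts were identical at 99.7% of 1248 bases, and 89.4% of the 50-base windows of the Tgtp1 transcript also occurred in Tgtp2. The ratio of Tgtp1 to Tgtp2 RPKM was nearly the same in every mouse, between 0.532 and 0.552 after AdCMV and between 0.499 and 0.528 after AdVEGF. Counting the pair once, as the mean of its log2 fold changes, gave a median of -1.97 over the genes.

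Igtp, also called Irgm3, was the regulatory IRG with the widest gap. At chr11:58013058-58021094 (mm9, plus strand), it had 139, 152, 326, 193 and 190 RPKM in the AdCMV mice and 44.99, 22.7, 54.0, 15.5 and 20.2 RPKM in the AdVEGF mice. The means were 199.9 ± 74.5 (SD, n = 5) and 31.5 ± 17.0 RPKM (SD, n = 5), with -2.76 as the log2 difference (standard error 0.32).

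Irgm1 and Irgm2 are regulatory IRG genes too, and their AdVEGF values came nearer to the AdCMV values. Irgm1, at chr11:48678751-48684848 (mm9, minus strand), had 68.6, 66.4, 127, 85.1 and 82.2 RPKM in the AdCMV mice and 35.3, 35.9, 40.2, 22.2 and 25.0 RPKM in the AdVEGF mice, which is a log2 difference of -1.43 (standard error 0.23). Irgm2, at chr11:58028479-58036285 (mm9, plus strand), had 47.8, 49.5, 83.1, 67.6 and 77.4 RPKM against 40.2, 26.6, 43.2, 26.7 and 25.9. Its log2 fold change of -0.998 (standard error 0.22) was the smallest in size, and its lowest AdCMV value was 1.11 times its highest AdVEGF value. Irgm2 and Igtp are neighbours on chromosome 11 and share the spaced GAS and ISRE letters shown above, while their log2 fold changes lay at opposite ends of the regulatory group.

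Of the GBP genes, Gbp2, Gbp3 and Gbp7 lie in the cluster on chromosome 3. Gbp2, which loads onto vacuoles of Toxoplasma, is at chr3:142283627-142300972 (mm9, plus strand) and had 23.5, 23.9, 58.2, 32.7 and 31.6 RPKM in the AdCMV mice and 14.5, 8.77, 11.9, 3.73 and 6.08 RPKM in the AdVEGF mice. Its log2 fold change was -1.97 (standard error 0.33). Gbp7, at chr3:142193300-142213115, had 17.9, 16.7, 47.1, 32.6 and 27.3 RPKM against 13.0, 9.51, 13.3, 4.30 and 7.58, or -1.56 as a log2 difference (standard error 0.32). Gbp3, at chr3:142223460-142236176, was the lowest of the 10 genes, with 13.5, 11.7, 29.3, 14.95 and 17.3 RPKM against 9.90, 7.12, 8.35, 2.80 and 4.88, or -1.43 as a log2 difference (standard error 0.32). For Gbp3 and Gbp7 the groups were separated by a narrow margin, the lowest AdCMV value being 1.18 and 1.26 times the highest AdVEGF value.

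Gbp6 lies in the GBP cluster of chromosome 5, at chr5:105699721-105722718 (mm9, minus strand). It had 98.4, 92.7, 149, 119 and 95.7 RPKM in the AdCMV mice and 26.1, 14.7, 21.4, 6.57 and 10.6 RPKM in the AdVEGF mice, and the log2 fold change of -2.93 (standard error 0.30) was the largest in size of the 4 GBP genes. The longest open reading frame of Gbp6 was identical to that of its neighbour Gbp10 at 98.4% of the aligned bases, and 90.2% of the 50-base windows of its transcript also occurred in the gene model Gm43302. Reads of these genes could have been divided between them by the counting, so the value of Gbp6 alone is uncertain.

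**Figure D2:**
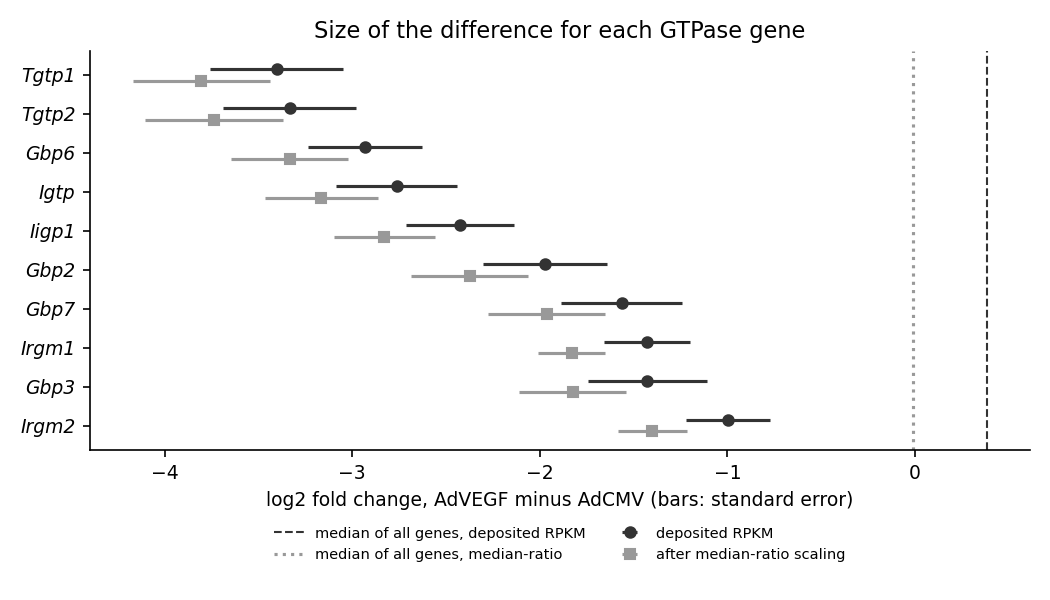
Log2 fold change of each gene, AdVEGF minus AdCMV, on the log2(RPKM + 0.1) scale, with the standard error as bars, for the deposited RPKM and after median-ratio scaling. The vertical lines are the medians of all genes tested, 0.38 and -0.01, and all 10 genes lie to the left of both.

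The order of levels differed between the groups. In the AdCMV mice the mean RPKM descended from Iigp1 over Tgtp2, Tgtp1, Igtp, Gbp6, Irgm1, Irgm2, Gbp2 and Gbp7 to Gbp3, and each gene exceeded the next in 5 of 5 mice, except that Tgtp1 exceeded Igtp in 2 of 5 mice. In the AdVEGF mice Iigp1 remained first and Gbp3 last. Irgm2, with a mean of 32.5 ± 8.46 RPKM (SD, n = 5), came next after Tgtp2 there, beside Irgm1 with 31.7 ± 7.70 and Igtp with 31.5 ± 17.0 RPKM, and the log2 differences between these neighbours, 0.04 ± 0.27 and 0.14 ± 0.50 (SD over 5 mice), were smaller than their spread. The same held for Tgtp2 over Irgm2 (0.18 ± 0.73) and for Gbp7 over Gbp2 (0.13 ± 0.18). The ratio of Igtp to Irgm1 ran from 2.02 to 2.57 after AdCMV and from 0.632 to 1.34 after AdVEGF, without overlap.

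The summed RPKM of the 10 genes was 1369, 1375, 2642, 1660 and 1539 in AdCMV mice 1 to 5 and 442, 321, 429, 159 and 225 in AdVEGF mice 1 to 5. Iigp1 made up 34.8% ± 1.26 (SD, n = 5) of the sum in the AdCMV mice and 36.7% ± 3.63 (SD, n = 5) in the AdVEGF mice. Irgm1 and Irgm2 together took a larger part of the smaller sum. The share of Irgm1 was 5.02% ± 0.220 and 10.7% ± 2.24 (SD, n = 5), and that of Irgm2 was 3.87% ± 0.728 and 11.1% ± 3.34 (SD, n = 5). The share of Tgtp1 was 11.9% ± 0.571 in the AdCMV and 6.48% ± 1.51 in the AdVEGF mice (SD, n = 5).

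**Figure D3:**
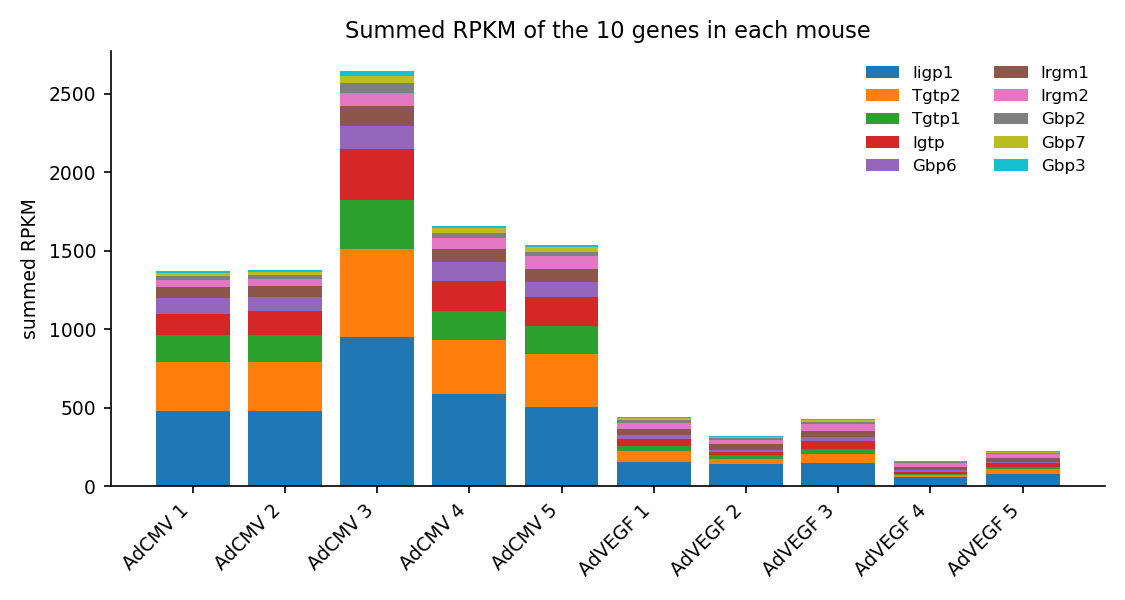
Summed RPKM of the 10 genes in each mouse, with each gene as a stacked segment. AdCMV mouse 3 reaches 2642 RPKM and AdVEGF mouse 4 reaches 159 RPKM.

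Single mice stood apart across the genes. AdCMV mouse 3, which had the smallest Mup share of its group, held the highest AdCMV value of all 10 genes, and their mean lay 0.68 above the group mean on the log2 scale. After median-ratio scaling it lay 0.19 above, and AdCMV mouse 4 was highest for 9 of the 10 genes. AdVEGF mouse 4 was lowest of its group for 9 of the 10 genes and for all 10 after median-ratio scaling, with a mean deviation of -0.98 and -1.02. The median log2 fold change of the 10 genes was between -2.37 and -1.95 when any 1 mouse was left out. Leaving out a mouse cannot make separated groups overlap, so the separation says nothing further in these settings.

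Of the list of other IRG and GBP genes, 16 of 17 in the table were tested. The list also holds Gvin1, a very large inducible GTPase of neither family. Of the 16 genes, 10 fell in AdVEGF while none rose, where 1.54% of all genes were called lower and 13% higher. A call was made by limma at a Benjamini-Hochberg adjusted p under 0.05 with a log2 difference beyond 1 in size. No member of the list had an unadjusted p under 0.05 in the upward direction, and voom called none higher. The median log2 fold change of the list was -1.12, and that of all genes tested was 0.38. Since the members and the list, apart from Gvin1, belong to the same families and were measured in the same mice, the list is no independent support for them. Without AdCMV mouse 3, and likewise without AdVEGF mouse 4, 6 genes were called lower. After median-ratio scaling 13 were, Gvin1 among them, with 3.21% of all genes called lower and 7.63% higher.

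Gbp10 fell most, from 108 ± 24.4 to 13.1 ± 6.81 RPKM (SD, n = 5; log2 fold change -3.19, limma adjusted p = 1.86e-06), followed by Gm12250, the gene of the effector Irgb10, which fell by 3.05 on the log2 scale (limma adjusted p = 7.18e-05). The longest open reading frame of Gbp10 was identical to that of Gbp6 at 98.4% of the aligned bases. Reads of the pair could have been divided by the counting, so the value of Gbp10 is not separate from that of Gbp6. The genes F830016B08Rik, Gbp4, Gbp2b, Gbp11, Ifi47, Gbp9, Gbp5 and Gbp8 fell too, with log2 fold changes from -2.16 to -1.06. Gbp2b just passed (adjusted p = 0.0467). Gm4951 had a log2 fold change of -0.86 with an adjusted p of 0.00509 and missed only the threshold on size, and Gvin1, Gm12185, Gm5431, 9930111J21Rik1 and 9930111J21Rik2 had log2 fold changes from -0.84 to 0.12 with adjusted p of 0.069 or more. Irgc1 was at 0 in all 10 mice. Gbp8, the smallest of the called falls, went from 15.2 ± 5.55 to 7.27 ± 2.65 RPKM (SD, n = 5).

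Among the 16 genes of the interferon-gamma ligand, receptor and signalling list, 4 fell and 1 rose. Of all genes tested, 1.54% were called lower and 13% higher. The median log2 fold change of the list was -0.31, and that of all genes tested was 0.38. The values of most genes of the list follow. Ifng itself had 0.575, 0.617, 0.845, 0.353 and 0.289 RPKM in AdCMV mice 1 to 5 and 0, 0.112, 0, 0 and 0 RPKM in AdVEGF mice 1 to 5. This rested on 29 reads in all AdCMV libraries and 1 read in all AdVEGF libraries, a ratio per mapped tag of 22.2 with a 95% exact counting interval of 3.68 to 906, which covers counting error only (limma adjusted p = 0.00208). Ifng passed the filter of 0.5 RPKM through its AdCMV mean alone (0.536 RPKM, against 0.0224 in AdVEGF). Only a fall could therefore be called for it. Socs1, the feedback inhibitor of the pathway, fell from 8.35 ± 3.06 to 1.70 ± 0.890 RPKM (SD, n = 5; log2 fold change -2.31, limma adjusted p = 0.000124).

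Batf2, a transcription factor induced by interferon-gamma, fell by 1.23 on the log2 scale (limma adjusted p = 0.0231). Irf1 had a log2 fold change of -0.85 with an adjusted p of 0.00324 and did not reach the threshold on size, though it did after median-ratio scaling, at -1.26. The receptor chain gene Ifngr1 rose, from 11.2 ± 3.59 to 25.4 ± 4.03 RPKM (SD, n = 5; log2 fold change 1.22, limma adjusted p = 0.00107), and it was under the threshold on size after median-ratio scaling, at 0.82. Ifngr2 and Jak1 had log2 fold changes of 0.64 and 0.74 (limma adjusted p = 0.0331 and 0.0157), under the threshold on size, and Jak2 had 0.08. The values of Nlrc5, Ciita, Socs3, Irf8, Ptpn2, Ptpn11 and Pias1 ran from -0.71 to 0.67, and none of the 7 had an adjusted p under 0.05. After median-ratio scaling Nlrc5 was called lower (log2 fold change -1.10, limma adjusted p = 0.00242). Ciita and Irf8 then had log2 fold changes of -0.97 and -0.48 (limma adjusted p = 0.0130 and 0.0452), under the threshold on size. With that scaling 6 of the 16 genes of the list were called lower and 0 higher, with 3.21% of all genes called lower and 7.63% higher.

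**Figure D4:**
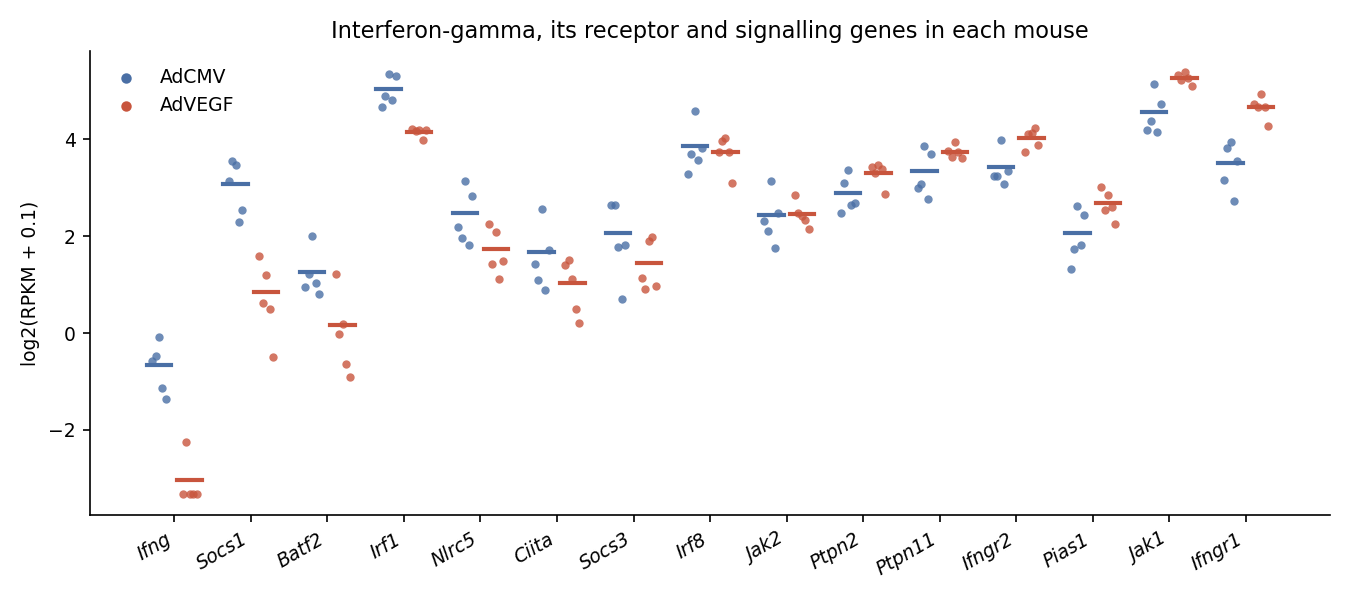
Expression of the interferon-gamma ligand, receptor and signalling genes named in the text, in each mouse, as log2(RPKM + 0.1), ordered by fold change. Points are mice and short lines are the log2 of the group mean plus 0.1. Ifng, with 1 read in all AdVEGF libraries, and Socs1 stand lowest against AdCMV, and Ifngr1 stands highest.

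Genes of the interleukins upstream of interferon-gamma and their receptors had no called member. Of 13 genes, 8 were tested and limma called none in either direction, with 1 at an unadjusted p under 0.05, which was higher, and voom also called none. Tbx21, the transcription factor of T helper 1 cells, had 0.584 ± 0.102 RPKM in AdCMV and 0.353 ± 0.184 in AdVEGF (SD, n = 5; log2 fold change -0.70, limma adjusted p = 0.199). Il18 and Stat4 both had a log2 fold change of -0.35, at 16.9 and 0.567 RPKM in AdCMV. The largest upward values were those of Il15 (0.78), Il15ra (0.19) and Eomes (0.17). The list median was -0.25, and -0.56 after median-ratio scaling, where all genes tested had 0.38 and -0.01. That scaling again gave no call, but 2 genes of the list were lower at an unadjusted p under 0.05. Il18 then stood at -0.75 (limma adjusted p = 0.0296) and missed only the threshold on size. Il15 then stood at 0.41 (limma adjusted p = 0.300). The direction of the list thus depended on the scaling. A p over the threshold does not show that the groups were alike.

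Other interferon-gamma induced genes included 8 called lower of 20 tested, where 1.54% of all genes were called lower. The median log2 fold change of the list was -0.72, and that of all genes tested was 0.38. The T cell attracting chemokine genes Cxcl9 and Cxcl10 fell by 3.25 and by 2.81 on the log2 scale (limma adjusted p = 2.83e-05 and 3.16e-06), and the ubiquitin-like gene Ubd fell by 3.09 (limma adjusted p = 7.27e-05). Casp1, Cybb and Casp4 had the largest upward values, 0.23, 0.13 and 0.11. Of type I interferon induced genes 6 of 22 fell, with a median of -0.69, and the largest falls were those of Mx1, Ifit1 and Rsad2, at -1.52, -1.49 and -1.44, while Oas2, Irf9 and Stat2 were at 0.50, 0.17 and -0.06. After median-ratio scaling the counts were 12 of 20 and 12 of 22, with 3.21% of all genes called lower. No gene of either list was called higher by limma or voom, and none had an unadjusted p under 0.05 in that direction.

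Genes whose products act with the GTPases at vacuoles, mostly of the autophagy conjugation machinery, had no called member. Limma called none of 18 genes tested, where 1.54% of all genes were called lower and 13% higher. Of the 18 genes, 3 had an unadjusted p under 0.05, all higher, and voom called none. Map1lc3b and Arhgdia had limma adjusted p of 0.00579 and 0.00944 and missed only the threshold on size. After median-ratio scaling again none was called, and 4 genes were lower at a limma adjusted p under 0.05. Map1lc3b and Arhgdia then had adjusted p of 0.0592 and 0.0557. Their median log2 fold change was 0.31, next to 0.38 for all genes. Trim21, Atg12 and Atg5 had the lowest values, -0.49, -0.17 and -0.10, and the highest were 0.88 for Map1lc3b, 0.83 for Arhgdia and 0.50 for Aim2.

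**Figure D5:**
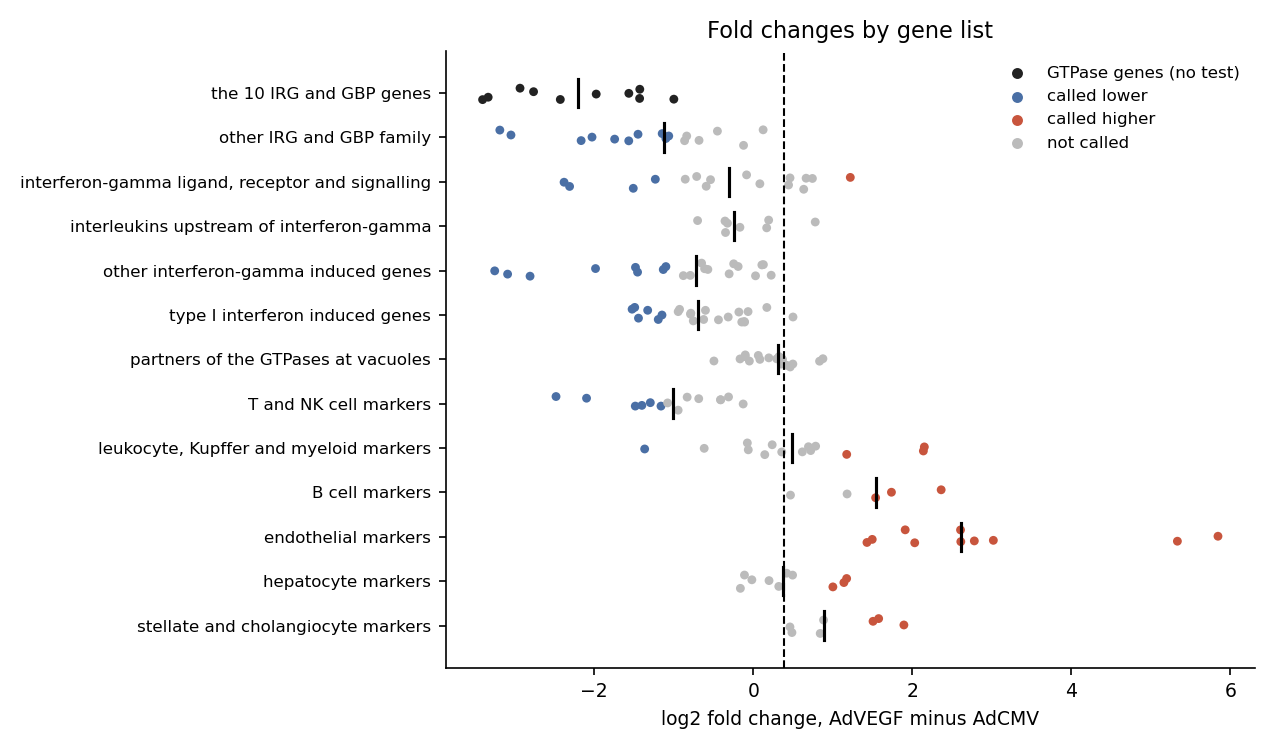
Log2 fold change, AdVEGF minus AdCMV, of the 10 GTPase genes and of the tested genes of each list. Each point is a gene, black bars are medians, colours mark limma calls, and the dashed line is the median of all genes tested, 0.38. The median of the 10 genes is -2.20 and that of the other IRG and GBP genes is -1.12.

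T and NK cells are the main source of interferon-gamma. Of 14 of their markers tested 6 fell and none rose, where 1.54% of all genes were called lower and 13% higher. The median log2 fold change of the markers was -1.01, and that of all genes tested was 0.38. After median-ratio scaling 9 were called lower, with 3.21% of all genes called lower. No marker had an unadjusted p under 0.05 in the upward direction, and voom called none higher. Gzmk had 17 reads in the AdCMV libraries together and was at 0 in all AdVEGF libraries (limma adjusted p = 0.00275). Gzmk thus passed the RPKM filter through AdCMV alone, and only a fall could be called for it. With a floor of 3 reads set for the AdVEGF group, it was 4.33-fold lower per mapped tag. This takes the 17 reads as exact and is no lower bound. Prf1 fell by 2.10 and Cd3g fell by 1.48 on the log2 scale (limma adjusted p = 0.00714 and 0.0291). The values nearest to no difference were those of Cd8b1, Lck and Gzma, at -0.13, -0.31 and -0.41. Without AdCMV mouse 3 the count fell to 3 of the 14, and without AdCMV mouse 4 it was 8.

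The summed RPKM of the 18 T and NK cell markers ran from 32.3 to 83.3 after AdCMV and from 26.6 to 43.6 after AdVEGF, with overlap. After median-ratio scaling the sums were 48.96 to 77.5 and 25.7 to 36.1, without overlap. Trat1 was at 0 in all mice, and the natural killer markers Ncr1 and Klrb1c were too low to be tested. Ncr1 was at 0.113 ± 0.108 RPKM in AdCMV and 0.377 ± 0.216 in AdVEGF, and Klrb1c at 0.196 ± 0.168 and 0.320 ± 0.359 RPKM (SD, n = 5). What part the markers have in the lower RPKM of the GTPase genes was not tested.

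Myeloid markers did not move one way. Of 14 leukocyte, Kupffer and myeloid markers 1 fell and 3 rose, where 1.54% of all genes were called lower and 13% higher. Their summed RPKM was 108 to 222 in AdCMV and 173 to 342 in AdVEGF, and no marker was at 0 in all mice. Ly6c2, a marker of inflammatory monocytes, fell by 1.37 (limma adjusted p = 0.000388), followed by Itgax and Ptprc at -0.62 and -0.07. The Kupffer cell markers Clec4f and Vsig4 rose by 2.15 and 2.14, and Csf1r by 1.18 (limma adjusted p = 0.000205, 0.000109 and 0.00348). Cd5l and Marco, the other Kupffer cell markers of the list, were not called. Csf1r was under the threshold on size after median-ratio scaling, at 0.78. All 10 endothelial markers rose, with a summed RPKM of 31.2 to 62.9 in AdCMV and 269 to 308 in AdVEGF. Cd34, Emcn and Tie1 had the largest log2 fold changes, 5.84, 5.33 and 3.02, and Tek, Eng and Stab2 the smallest, 1.43, 1.497 and 1.91. The part of these shifts in the values of the 10 genes was not tested.

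The genes whose pattern over the 10 mice was most like the mean pattern of the 10 GTPase genes were sought among 13923 other genes, by the root mean square difference of log2(RPKM + 0.1) centred on the mean of the 10 mice. The nearest was Gbp4, at 0.21, and among the next were F830016B08Rik (0.39), Cxcl10 (0.40), Slamf7 (0.41), Ly6i (0.42), Acss3 (0.44) and Rsad2 (0.45). The 10 genes themselves lay between 0.16 for Gbp2 and 0.69 for Irgm2. With each group centred on its own mean, so that the difference between the groups has no part, the nearest of 2757 genes with at least the same spread were Gbp10 (0.16), Ifit2 (0.17), Cmpk2 (0.18), Gbp4 (0.18) and Acss3 (0.20). The distances are a description over 10 mice that share their libraries and depth, and Slamf7, Ly6i and Acss3 are in none of the lists. The longest open reading frames of Gbp10 and Gbp4 were identical to that of Gbp6 at 98.4% and 90.55% of the aligned bases. What part shared reads have in the distances of Gbp10 and Gbp4 was not tested.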

How the data were processed

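The 10 libraries come from livers of 5 AdVEGF and 5 AdCMV mice, which the labels call biological replicates. The authors mapped the reads with TopHat, and mm9 and HOMER are named in the submitters' processing notes. They deposited RPKM for 24016 transcripts in each mouse, scaled to the library total only, and their own comparison as a log fold change and an FDR, which were not used. Whether counting used strand is not given in the sources used here.

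Reads behind the RPKM values were recovered from their steps (at least 99.98% of values were whole within 0.02 reads, or within the rounding of the deposited decimals). Transcripts without a symbol (5, at most 0.00534% of reads) were left out. The test was limma-trend (version 3.58.1, R 4.3.3) on log2(RPKM + 0.1) for the 13933 genes whose mean in either group passed 0.5 RPKM, Benjamini-Hochberg adjusted over all of them. A call needs an adjusted p below 0.05 together with a log2 difference larger than 1 in size. Fold changes on this scale understate the change of low genes. Samples were grouped by their labels, and libraries of a group differed in variance by at least 12.4 times counting noise. The test and the recovery were tested on simulated data. Intervals cover counting error only, and the floor leaves out the counting error of the AdCMV reads. Arithmetic and sequence comparison were done in Python 3.11.15 (scipy 1.17.1, Biopython 1.88).

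The members and the gene lists were chosen with earlier results of these data known. Named were the 10 members, the genes of the family and signalling lists, the 3 largest falls and rises of other lists, and the 8 and 5 genes nearest in pattern. The values of some genes that these rules name are not reported here. The settings varied were the scaling (median ratios or upper quartile), totals without Mup genes, other pseudocounts and filters, voom on the recovered reads, the replicate number as a block, leaving out each mouse, and Tgtp1 and Tgtp2 counted once. Promoters came from RefSeq (GRCm38.p6) and transcripts from GENCODE M21, and no coordinates were converted between builds.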

Additional observations from a re-analysis of the deposited data

Results flagged for a closer look

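In AdCMV mouse 3 the RPKM of Tgtp1 (311), Tgtp2 (564), Igtp (326), Iigp1 (947) and Gbp2 (58.2) lay far above the other 4 AdCMV mice, with a gap to the next value of more than 0.71 of the range of the group, the 95% critical value of Dixon's test for 5 samples. These were 5 of 20 groups of 5 values examined, and chance gives about 1 in 20. Tgtp1 and Tgtp2 are not separate measurements, and all 5 values come from 1 library. After median-ratio scaling none of the 20 groups passed the critical value.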

How the results depend on the processing

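The direction of all 10 GTPase genes was the same under every alternative run. All AdVEGF values of each gene stayed under its AdCMV values with median-ratio scaling, upper quartile scaling and totals without Mup genes. The other settings could not make the groups overlap and so could not test this. The median log2 fold change of the 10 genes lay between -2.37 and -1.95 when 1 mouse was left out and between -2.62 and -1.97 otherwise. Of 494 values under alternatives 15 moved and none reversed. These values include the fold changes of the 10 genes, which were chosen for their difference, and counts of separated genes that most settings could not change. With a pseudocount of 1, 1 T and NK cell marker and 2 signalling genes were called lower. Median-ratio scaling, upper quartile scaling and totals without Mup genes called 12, 11 and 13 type I interferon induced genes lower. Each of these scalings called 6 signalling genes lower and 0 higher. Leaving out 1 mouse gave 6 to 10 other IRG and GBP genes, 3 to 4 signalling genes, 3 to 8 T and NK cell markers, 7 to 8 other interferon-gamma induced and 4 to 8 type I interferon induced genes called lower. Lower calls were 10.6% of all calls with the deposited RPKM and 29.6% once libraries were scaled by median ratios. Voom on the recovered reads called 215 genes lower and 1993 higher, where limma on RPKM called 214 and 1808. The cause of these shifts was not tested.

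Whether equal replicate numbers pair the mice was not settled. The correlation of deviations was 0.00763 to 0.291 over the 5 numbers and over 0.1 for 2 of them. No correlation between unequal numbers was computed for comparison. Over all genes, the fit with the number as a block called 256 lower and 1933 higher, where the fit without it called 214 and 1808. With the number as a block, the list counts did not change, with 10 other IRG and GBP genes, 4 signalling genes, 6 T and NK cell markers, 8 other interferon-gamma induced and 6 type I interferon induced genes called lower, and the median of the 10 genes was -2.20. Depth limits Ifng, which had 1 read in all AdVEGF libraries. Values of Tgtp1, Tgtp2, Gbp6 and Gbp10 are limited by near-identical copies, and the scaling between libraries cannot be settled from the deposited RPKM.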

Other observations

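Markers of other liver cells were measured in the same libraries. Of all genes tested, 13% were called higher with the deposited RPKM and 7.63% after median-ratio scaling. Of 5 B cell markers tested 3 rose, among them Cd79b and Ms4a1, with log2 fold changes of 2.36 and 1.74 (limma adjusted p = 0.000185 and 0.0161), at a summed RPKM of 1.58 to 2.29 in AdCMV and 4.16 to 9.78 in AdVEGF. After median-ratio scaling 1 of the 5 was called. Of 7 stellate cell and cholangiocyte markers 3 rose, the stellate genes Des, Reln and Lrat, at 1.89, 1.58 and 1.51, while the cholangiocyte genes Epcam and Krt19 were at 0.46 and 0.49 and were not called. Of 10 hepatocyte markers 3 rose with the deposited RPKM, Apoa1, Alb and Trf, with log2 fold changes of 1.17, 1.14 and 1.00, and Hnf4a, Apob and Asgr1 had the lowest values, -0.16, -0.11 and -0.02. With median-ratio scaling limma called 0 of these 10.

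The ratio of Gbp10 to Gbp6, whose longest open reading frames were identical at 98.4% of the aligned bases, ran from 0.911 to 1.03 after AdCMV and from 0.735 to 0.853 after AdVEGF. The ratio of Gbp2 to Gbp3 was 1.74 to 2.19 and 1.23 to 1.47. Both sets of ratios are descriptions, with no test.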
